A study of Mus musculus with 26 samples.

Results

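The lipid droplet proteins examined here were the 5 perilipins (Plin1, Plin2, Plin3, Plin4 and Plin5), the CIDE family members Cidec and Cideb, and the droplet assembly factors Bscl2, Fitm1 and Fitm2. Members were chosen by gene name, and all 10 genes were on the array, with 16 probes that all passed the filter on dim signals, out of 25407 gene names and 56605 non-control probes. Where a gene had several probes, the brightest probe on average stands for it, and the other probes are given beside it.

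Lipid droplets are stores of triglyceride and cholesteryl ester surrounded by a monolayer of phospholipid that carries a coat of proteins. Perilipins bind this surface and control the access of lipases, and the perilipin present differs with the cell type. Plin1 and Plin4 are typical of white adipocytes, Plin2 is found in most cells that store lipid, Plin3 is widespread and moves between cytosol and nascent droplets, and Plin5 is typical of tissues that oxidise fatty acids, where it brings droplets close to mitochondria. Cidec promotes the transfer of lipid from smaller into larger droplets and is needed for the single large droplet of a white adipocyte, the unilocular form. Brown and beige adipocytes hold many small droplets, the multilocular form, and express the related gene Cidea. Seipin, the product of Bscl2, and the FIT proteins act at the endoplasmic reticulum, where droplets are formed.

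RNA came from inguinal subcutaneous white adipose tissue of C57BL6/J male mice, with 1 array per mouse. The 4 genotypes compared were ChREBPtotal_KO and ChREBPtotal_WT (7 mice each), ChREBPbeta_KO (5 mice) and ChREBPbeta_WT (7 mice). The first carried a null Mlxipl gene in the whole body and lacked both isoforms of the glucose-responsive transcription factor ChREBP, and is called total ChREBP KO below. In ChREBPbeta_KO mice, exon 1b of Mlxipl, which is specific to the shorter isoform ChREBPβ, was deleted in the whole body by CRISPR/Cas9, and each KO was compared with the wild-type (WT) animals of its own line. Each of the 26 mice went without food for 24 h and received food and 20% glucose in the water over the following 18 h, and no unfed or untreated group was analysed here. Several transgenic lines of ChREBPβ-deficient mice were derived per strain, animals came from several litters per protocol, and the line used for these arrays and the ages were not given in the sources used here. Because the deletions affected every cell and because whole tissue was profiled, a lower value can stand for fewer cells of a type or for less RNA per cell, and these cannot be told apart. The size and number of lipid droplets were not measured in the data used here.

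The arrays fitted their labels at the targeted gene, since Mlxipl was lower by 2.21 on the log2 scale in total ChREBP KO and by 1.54 in ChREBPβ-deficient mice, with no overlap of arrays in either line. On each array 70.2% to 76.5% of the spots exceeded background clearly, with 0 saturated. Adipocyte markers were high on all arrays, with a mean log2 intensity over 10 genes between 15.52 and 16.58. Beige and lymphocyte markers were higher in the WT of the total line. There the mean over 8 beige and brown adipocyte markers lay between 11.73 and 14.05, against 9.94 to 11.82 on the other 19 arrays, and the mean over 15 lymphocyte markers lay between 10.81 and 12.44, against 7.33 to 11.16. The mean over 12 skeletal muscle markers ran from 5.93 to 13.12, with low and high arrays in all 4 groups but a group mean of 7.57 in the WT of the total line, 10.27 in its KO, 9.17 in the WT of the ChREBPβ line and 9.32 in ChREBPβ-deficient mice. The macrophage level was 12.01 in the WT of the total line, 11.53 in its KO and 12.74 and 12.51 in the WT and KO of the ChREBPβ line. Every comparison with the WT of the total line carries these differences, and their part in the results was not tested beyond the values given with the arrays left out or the level as a covariate.

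Because ChREBP binds carbohydrate response elements, which are built from E-box-like sequences, the promoters of the members were read. RefSeq (GRCm38.p6) gave 14 start sites for the 10 genes, each with 250 bases before and 50 bases after the start. The E-box CACGTG, which reads the same on both strands, was present in 7.15% of all 32851 promoters, and among the members it was found in Plin2 alone. A pair of exact CACGTG copies 5 bases apart was found in 0 of all 32851 promoters. Pairs with inexact copies were not searched, so this count cannot tell whether a member carries a carbohydrate response element. An AGGTCA pair 1 base apart, searched on both strands, was found in 13 promoters (0.0396%), of which none belonged to a member. A match describes letters in this window and is not evidence of binding. The Plin2 sequence is shown because Plin2 was the member with the largest fall in total ChREBP KO. It is the stretch chr4:86670058-86670309 on the minus strand, written from 5′ to 3′, with the E-box in capitals. The first base of the motif lies 4 bases before the annotated start, so that the motif spans that start.
Plin2: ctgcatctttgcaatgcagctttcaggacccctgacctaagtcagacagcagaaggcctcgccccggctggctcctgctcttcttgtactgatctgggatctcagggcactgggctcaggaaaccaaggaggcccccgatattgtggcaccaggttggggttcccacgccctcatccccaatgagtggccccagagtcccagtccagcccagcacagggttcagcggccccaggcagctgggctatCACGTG

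Plin4 and Plin5 are neighbours on chromosome 17 and are both read from the minus strand, with 7766 bases between their annotated starts, and they are shown together because their values moved in opposite directions in the same comparison. The stretches are chr17:56109783-56110032 for Plin4 and chr17:56117549-56117798 for Plin5, each ending just before the annotated start. Capitals mark TATAAG, a motif chosen after the letters had been read, which was found in 7.43% of all promoters on either strand. It begins 32 bases before the start of Plin4 and 27 bases before the Plin5 start at 56117548, and no other member had it. Plin5 has another annotated start, at 56117298, whose window did not hold TATAAG. The distance and the stretch given for Plin5 refer to the start at 56117548.
Plin4: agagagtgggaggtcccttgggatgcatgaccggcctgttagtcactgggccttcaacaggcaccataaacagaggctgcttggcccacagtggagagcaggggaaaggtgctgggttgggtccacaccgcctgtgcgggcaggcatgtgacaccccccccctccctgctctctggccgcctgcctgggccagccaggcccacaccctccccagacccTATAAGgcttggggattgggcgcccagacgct
Plin5: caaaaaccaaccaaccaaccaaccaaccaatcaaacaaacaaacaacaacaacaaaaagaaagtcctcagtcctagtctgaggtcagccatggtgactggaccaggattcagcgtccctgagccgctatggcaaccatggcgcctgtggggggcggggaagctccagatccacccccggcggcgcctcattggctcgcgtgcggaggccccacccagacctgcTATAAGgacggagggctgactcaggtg

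In total ChREBP KO, 7 of the 10 members differed from the WT of the line at an adjusted p of 0.05, 5 of them higher (Plin1, Plin4, Cidec, Bscl2 and Fitm2) and 2 lower (Plin2 and Plin5). Calls were frequent in this comparison, with 45.9% of all genes tested, 26.2% higher and 19.7% lower. The median absolute log2 difference was 0.83 over the members and 0.21 over all genes. The KO and WT arrays did not overlap for 5 members (Plin1, Plin2, Plin4, Cidec and Fitm2), against 14.7% of all genes. Beside these counts, 9 of 10 adipocyte markers were higher and 1 lower in total ChREBP KO, with a level of 16.32 to 16.56 against 15.52 to 15.99 in WT, 5 of 8 beige markers were lower and 1 higher, 15 of 15 lymphocyte markers and 2 of 8 macrophage markers were lower, 2 of 12 muscle markers were higher (9 at an unadjusted p of 0.05, with a median log2 fold change of 2.59), and 0 of 5 epithelial and 0 of 4 red blood cell markers were called. Without the 14 arrays whose skeletal muscle level was at or above 9 (a choice made once the data were seen), 5 members were called, 4 higher and 1 lower. That fit kept 2 KO and 5 WT arrays of the total line, and 2 KO and 3 WT arrays of the ChREBPβ line. Its calls over all 38832 probes were 10197, against 17691 with all arrays, and lost calls can stem from the smaller groups.

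**Figure D1:**
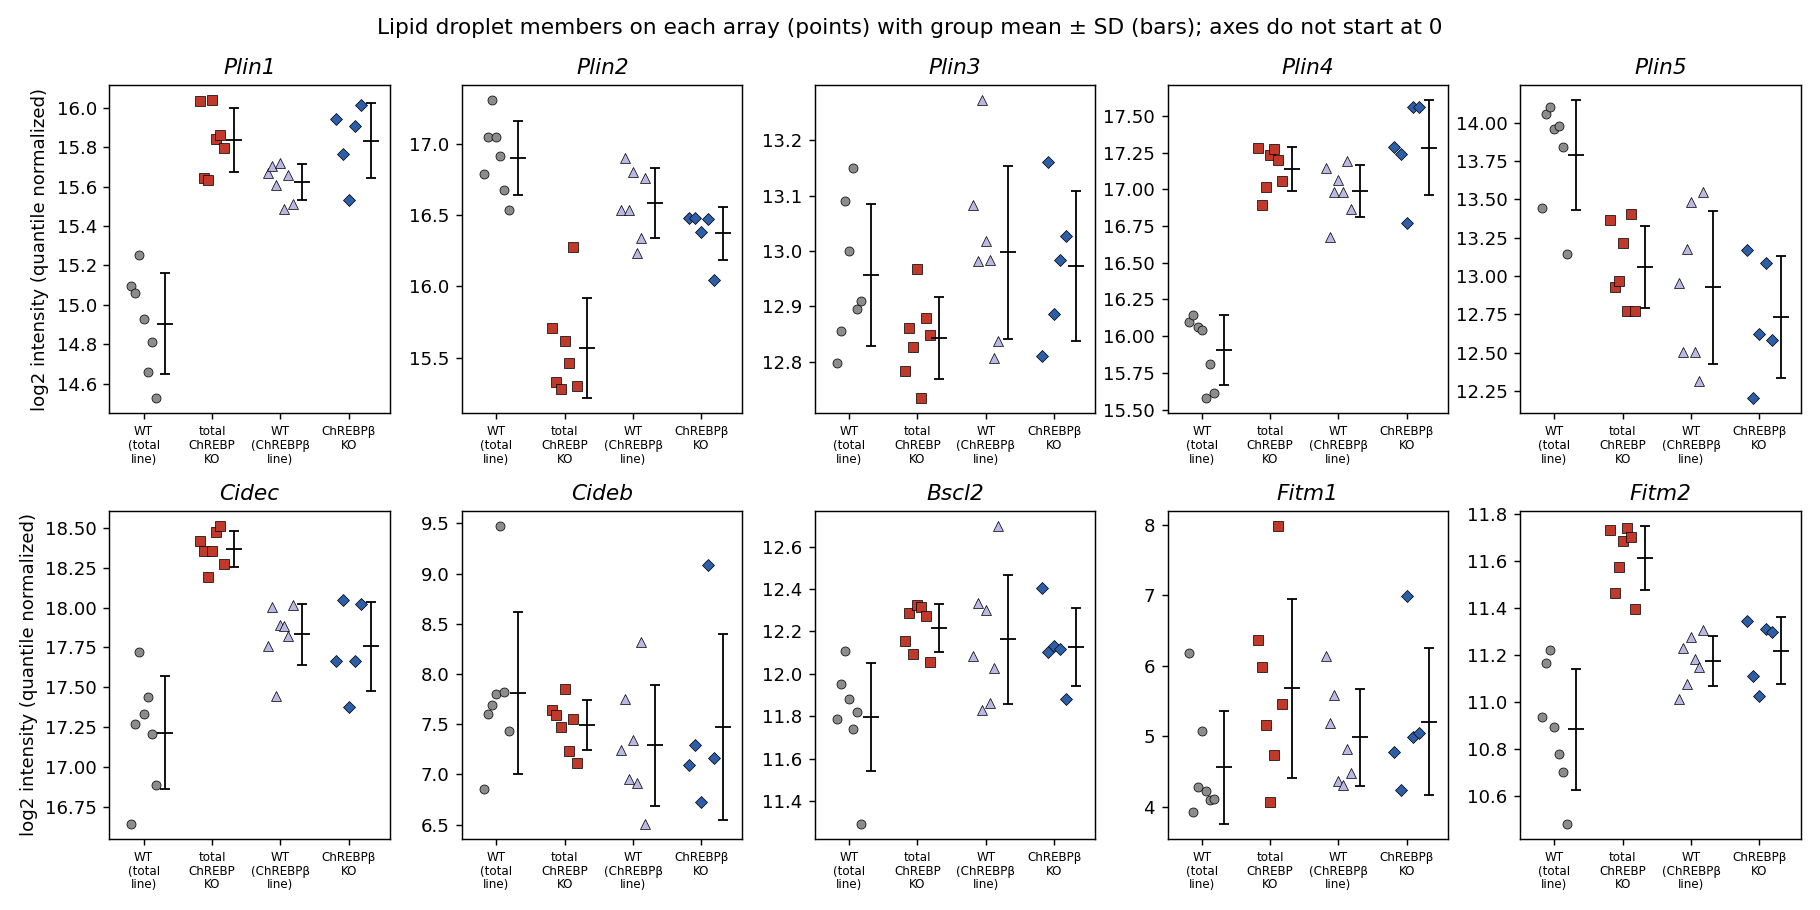
Log2 intensity of each member (1 panel per gene, probe of highest mean) on each of the 26 arrays, by group, with the group mean and SD as bars; the vertical axes are cut and differ between panels. Total ChREBP KO (red squares) lies apart from its WT (grey circles) for Plin1, Plin2, Plin4, Cidec and Fitm2, and Cidec between 18.19 and 18.52 is, like Fitm2, above all arrays of the other groups.

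Plin4, which coats small nascent droplets in adipocytes, had the largest rise among the called members. Its log2 intensity in the WT of the total line ran from 15.58 over a median of 16.04 to 16.14, and in total ChREBP KO from 16.89 over 17.20 to 17.28. All 7 KO arrays lay above all 7 WT arrays. The level was 2.35-fold higher, or 1.23 higher on the log2 scale (SE 0.12, adjusted p from limma = 6.21e-09). The probe (A_51_P495780) lies at chr17:56240055-56240114 of mm9. In the ChREBPβ line the WT arrays ran from 16.68 over 16.98 to 17.20, and the ChREBPβ-deficient arrays were at 17.29, 17.24, 16.77, 17.56 and 17.56. Both groups of the ChREBPβ line overlapped with total ChREBP KO, and the WT of the total line was below all 19 other arrays.

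Plin1, the perilipin that holds the lipase activator Abhd5 at the droplet until hormones stimulate lipolysis, was also higher in total ChREBP KO. Its WT arrays ran from 14.52 over a median of 14.93 to 15.25, and the KO arrays from 15.64 over 15.84 to 16.04. The groups did not overlap, and the level was 1.91-fold higher (log2 fold change 0.93, SE 0.10, adjusted p = 3.92e-08). The 3 probes for Plin1 did not move alike. On the minus strand of chromosome 7 of mm9, the probes starting at 86866112 (A_51_P244497, the one above) and 86870028 (A_55_P2729049) gave log2 fold changes of 0.93 and 1.02, and the probe starting at 86873870 (A_55_P2728182) gave 0.13 (SE 0.12, adjusted p = 0.379). The last probe is the one nearest to the start of the gene, and its WT range of 12.79 to 13.63 enclosed the KO range of 13.07 to 13.47. No exon annotation of this build was used here. The ChREBPβ line was at 15.48 to 15.72 in WT and at 15.94, 15.77, 15.53, 15.91 and 16.01 in the deficient mice, so the WT of the total line was again below all 19 others at the first probe.

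Cidec, also known as Fsp27, was 1 of 2 members, with Fitm2, for which total ChREBP KO lay above all arrays of the other 3 groups. The WT arrays of the total line ran from 16.64 over a median of 17.27 to 17.72, and the KO arrays from 18.19 over 18.36 to 18.52. The level was 2.23-fold higher, or higher by 1.15 on the log2 scale (SE 0.13, adjusted p = 1.07e-07; probe A_51_P490456, chr6:113374693-113374752 of mm9). The WT of the ChREBPβ line ran from 17.45 to 18.02 and overlapped with the WT of the total line, and the ChREBPβ-deficient arrays were at 17.66, 18.05, 17.38, 17.66 and 18.03. The KO arrays had the smallest spread of Cidec, with an SD of 0.11 against 0.36 in their WT.

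Plin2, the perilipin of droplets in most cell types, went the other way. In the WT of the total line it ran from 16.54 over a median of 16.91 to 17.31, and in total ChREBP KO from 15.28 over 15.46 to 16.28. The level was 2.52-fold lower, its log2 fold change being -1.33 (SE 0.14, adjusted p = 4.42e-08; probe A_55_P1999648, chr4:86302847-86302906 of mm9). The second probe, A_66_P132059, gave -1.44 (SE 0.16, adjusted p = 7.77e-08). At the first probe the WT arrays of the ChREBPβ line ran from 16.23 to 16.90, and the deficient arrays were at 16.48, 16.48, 16.38, 16.47 and 16.05. Of the 7 total ChREBP KO arrays, 6 were below all 19 others, and replicate 7 was at 16.28 and within the range of the ChREBPβ line. That array also had the highest skeletal muscle level of all, 13.12, and the highest beige level of its group, 11.82. Its lymphocyte level was 7.97, in a group range of 7.95 to 11.16. Over the 26 arrays, each group centred on its mean, Pearson's r of Plin2 was 0.08 with the muscle level. It was 0.57 with the beige level and -0.64 with the lymphocyte level. Which of these goes with the value of that array was not tested. Without that array the log2 fold change was -1.45.

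Plin5, which tethers droplets to mitochondria, was lower in total ChREBP KO at both of its probes. At A_55_P2104259 (chr17:56251025-56251084 of mm9) the WT arrays ran from 13.14 over a median of 13.96 to 14.10, and the KO arrays from 12.77 over 12.97 to 13.40. The groups overlapped, since 2 WT arrays (replicates 1 and 8, at 13.44 and 13.14) lay near or inside the KO range. The log2 fold change was -0.73 (SE 0.20, adjusted p = 0.00384), and at A_51_P262757 it was -0.74 (SE 0.21, adjusted p = 0.00531). These were also the WT arrays with the lowest beige and brown adipocyte level, 11.73 and 12.54, against 13.36 to 14.05 in the other 5. Across the 26 arrays, after centring each group on its mean, Pearson's r between Plin5 and that level was 0.78. It was 0.67 for Cidec, 0.57 for Plin2 and 0.55 for Bscl2, and Cidec was higher in the KO. The arrays share platform and scaling, and these values are a description. With the level as a covariate (also chosen with the data seen), the log2 fold change of Plin5 was 0.26 (adjusted p = 0.344), and without the 14 arrays of high skeletal muscle level it was -0.83 (adjusted p = 0.0972). With slide as a fixed block it was -0.80 (adjusted p = 0.213).

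**Figure D2:**
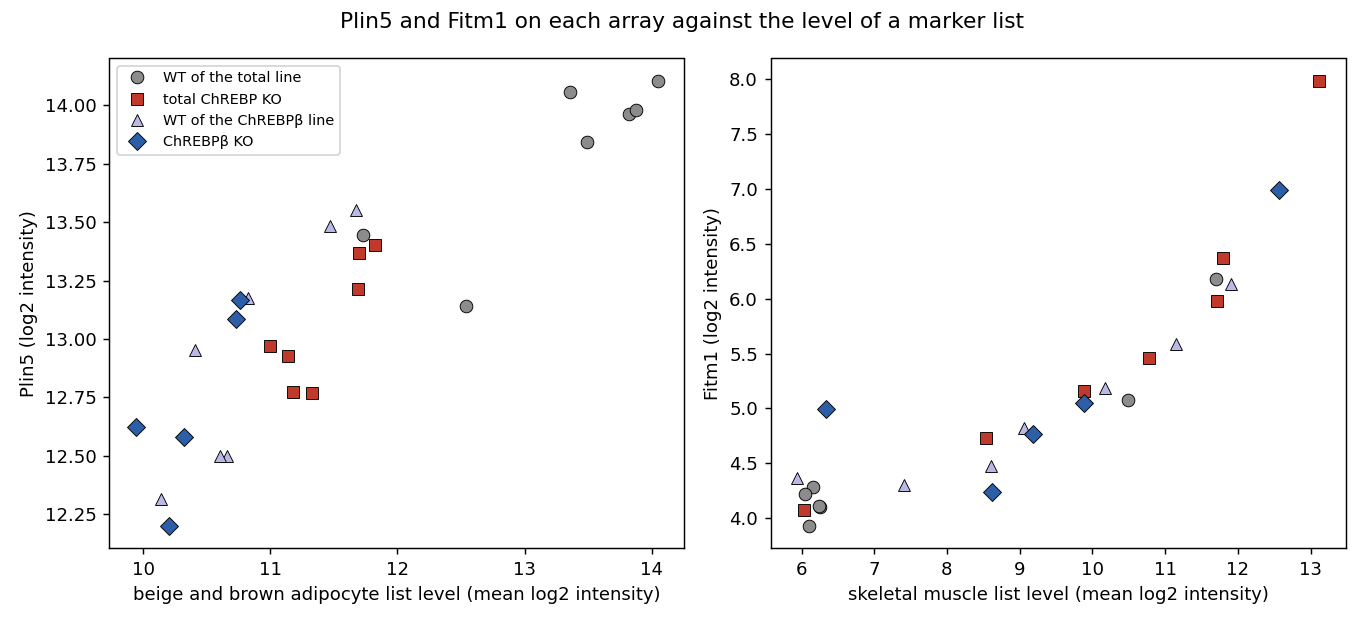
Left, log2 intensity of Plin5 against the mean log2 intensity of 8 beige and brown adipocyte markers; right, Fitm1 against the mean of 12 skeletal muscle markers; each point is 1 of the 26 arrays, with colour and shape for the group. Plin5 runs from 12.20 to 14.10 and the beige level from 9.94 to 14.05, with both highest on the same array and lowest on different arrays. Fitm1 is highest, at 7.99, on the array with the highest muscle level.

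The droplet assembly genes also included rises. Fitm2, the FIT protein of adipose and most other tissues, ran from 10.48 over a median of 10.90 to 11.22 in the WT of the total line and from 11.40 over 11.68 to 11.74 in total ChREBP KO. The groups did not overlap, and all 7 KO arrays were above all 12 arrays of the ChREBPβ line too, which lay between 11.01 and 11.35. The log2 fold change was 0.73 (SE 0.09, adjusted p = 7.18e-07; probe A_55_P2742950), a 1.66-fold higher level, and the second probe, A_52_P172441, gave 0.63 (SE 0.15, adjusted p = 0.00102). Bscl2, whose loss causes a congenital lipodystrophy, ran from 11.29 over 11.82 to 12.11 in WT and from 12.06 over 12.27 to 12.33 in KO, so that the groups overlapped. Its log2 fold change was 0.42 (SE 0.12, adjusted p = 0.00569; probe A_51_P196526). The Bscl2 call was lost with slide as a fixed block (0.40, adjusted p = 0.206), with lymphocyte and muscle levels as covariates (0.34, adjusted p = 0.214) and without the arrays of high muscle level (0.54, adjusted p = 0.102).

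Fitm1, the FIT protein of skeletal muscle and heart, did not pass the test at a fitted log2 difference of 1.12 (SE 0.49, adjusted p = 0.0629; probe A_51_P164630). It was well above background on 15 of the 26 arrays, 2 of 7 in the WT of the total line, 5 of 7 in its KO, 4 of 7 in the WT of the ChREBPβ line and 4 of 5 in the ChREBPβ-deficient mice. Its values ran from 3.93 over a median of 4.22 to 6.18 in WT and from 4.07 over 5.46 to 7.99 in KO, and they followed the skeletal muscle level. The group-centred Pearson's r with that level was 0.87 over 26 arrays, and the genes with the most similar group-centred pattern were Asb5, Trim63 and Txlnb (r = 0.97 each), of which Trim63 encodes a muscle ubiquitin ligase. With the muscle level as a covariate the log2 fold change was 0.12 (adjusted p = 0.743). Fitm1 passed the test in 4 of 16 alternatives other than leaving out an array. Over these its log2 fold change ran from -0.43 to 2.82, with 1 change of sign. Plin3 did not pass the test either, at a fitted log2 difference of -0.11 (SE 0.07, adjusted p = 0.19) and a 95% interval from -0.26 to 0.03. It was the member with the narrowest range, from 12.73 to 13.27 over all 26 arrays.

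Cideb, the CIDE protein of liver and intestine, where it takes part in lipoprotein secretion, gave different results at its 2 probes. The probe of highest mean, A_66_P108685, had a log2 difference of -0.32 (SE 0.34, adjusted p = 0.463), and A_55_P2746861, well above background on 19 arrays, had 0.38 (SE 0.09, adjusted p = 0.000771). At the first probe 2 arrays were far above the rest, replicate 6 of the WT of the total line at 9.48 and replicate 5 of the ChREBPβ-deficient mice at 9.09, against 6.50 to 8.32 on the other 24. The genes with the most similar pattern, Ugt3a2, Tat and Cyp2c67 (r from 0.94 to 0.95), were high on the same 2 arrays. Tat, a tyrosine aminotransferase of liver, was at 8.89 and 9.15 there, against a median of 6.92 on the others. Cyp2c67 was at 8.67 and 9.45, against a median of 5.70. Replicate 7 of the WT of the ChREBPβ line came next for Cideb and these 3 genes, with Cideb at 8.32, Cyp2c67 at 8.45, Tat at 8.52 and Ugt3a2 at 7.59.

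**Figure D3:**
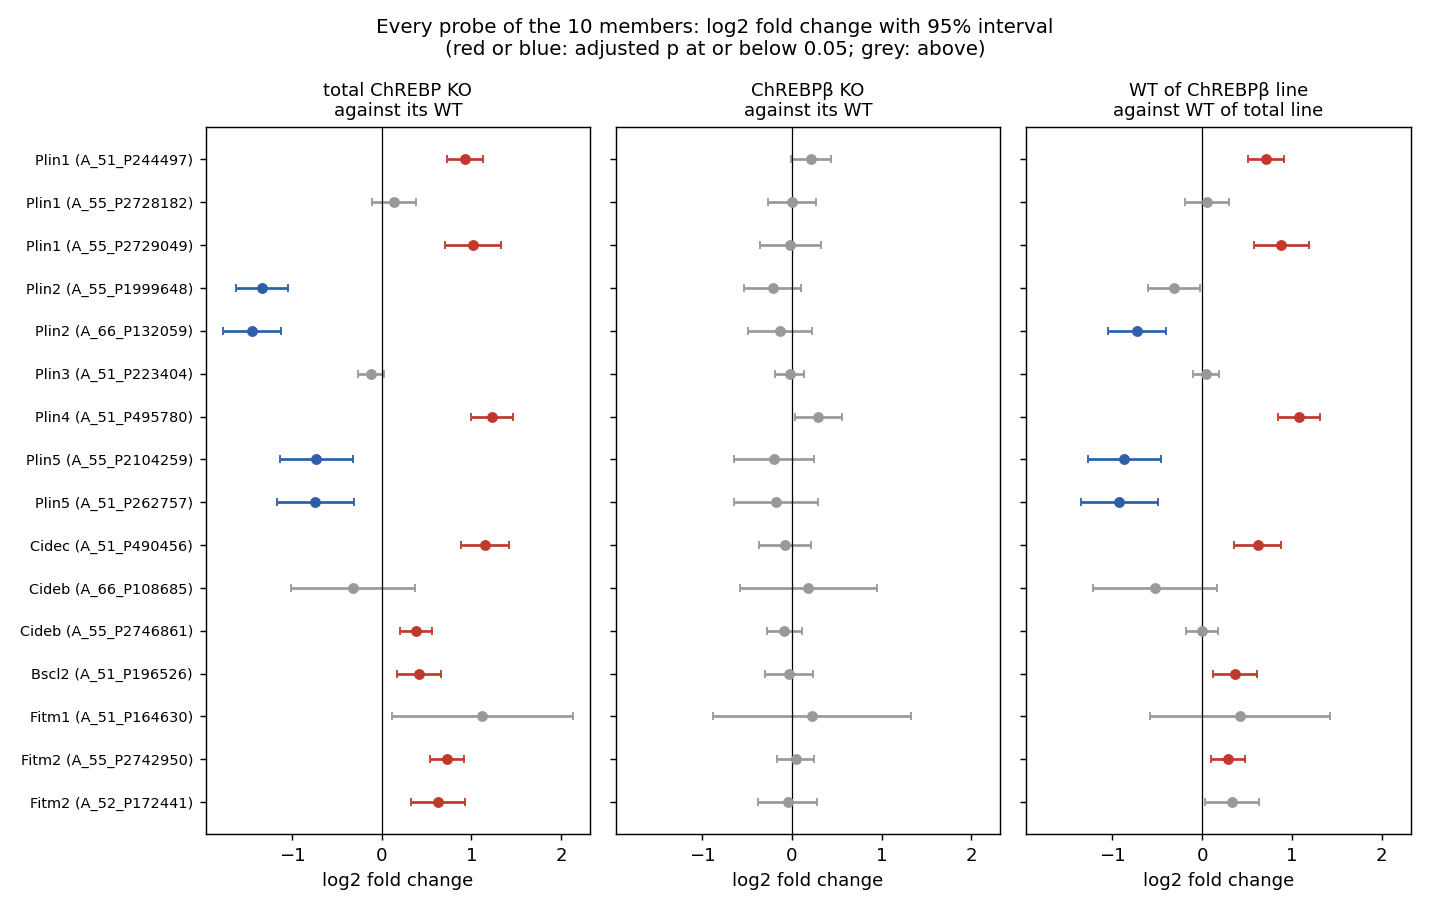
Log2 fold change of all 16 probes of the members with its 95% interval from the fit, in total ChREBP KO against its WT (left), ChREBPβ-deficient mice against their WT (middle) and the WT of the ChREBPβ line against the WT of the total line (right); coloured points are called at an adjusted p of 0.05. The left panel has 12 coloured probes and the middle panel 0, and the right panel has 9, with the left and right panels sharing the 7 WT arrays of the total line.

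Loss of ChREBPβ alone changed none of the 10 members at an adjusted p of 0.05 in limma, and the background was 0.0472% of all genes. At an unadjusted p of 0.05, which 7.75% of all genes passed, there was 1 member, Plin4, whose log2 difference was 0.30 (SE 0.13, adjusted p = 0.557). The 95% intervals limit what could have gone unseen. They ran from -0.53 to 0.10 for Plin2, from -0.01 to 0.43 for Plin1, from 0.04 to 0.56 for Plin4, from -0.37 to 0.21 for Cidec, from -0.64 to 0.25 for Plin5 and from -0.16 to 0.25 for Fitm2. Those of Fitm1 (-0.88 to 1.33) and Cideb (-0.58 to 0.94) were wider. For no member were the arrays of the ChREBPβ-deficient mice and their WT free of overlap, against 0.378% of all genes. This lack of calls does not show that levels were equal. The intervals of Plin1, Plin2, Plin4, Plin5, Cidec, Fitm2 and Bscl2 (-0.30 to 0.23) do not contain the estimates seen in total ChREBP KO. Those estimates have an error of their own, which the interaction term below takes into account.

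The difference between both KO effects was tested as an interaction term, and 5 of the 10 members passed, against 23.1% of all genes. The ChREBPβ effect minus the total effect was below 0 for Cidec, at -1.23 (SE 0.19, adjusted p = 6.7e-05), for Plin4 at -0.93 (SE 0.17, adjusted p = 0.000404), for Plin1 at -0.72 (SE 0.14, adjusted p = 0.000997) and for Fitm2 at -0.69 (SE 0.14, adjusted p = 0.000935), all on the log2 scale. It was above 0 for Plin2, at 1.12 (SE 0.21, adjusted p = 0.000483). For Plin5 the difference was 0.54 (SE 0.29, adjusted p = 0.199) and for Bscl2 -0.45 (SE 0.18, adjusted p = 0.0667), so that neither passed the test. Bscl2 passed in 4 of 16 alternatives, namely both scalings to the 75th percentile, array weights and the beige level as a covariate, the last with -0.76 (adjusted p = 0.00329). With slide as a fixed block 0 of the 5 passed, and the calls over all 38832 probes went from 8714 to 612. The differences were then -1.26 for Cidec, -0.92 for Plin4, -0.89 for Plin1, -0.66 for Fitm2 and 0.83 for Plin2. Without the arrays of high muscle level 1 of the 5 passed, Cidec at -1.18 (adjusted p = 0.0489), with 990 probes called, and the others were at -0.98 for Plin4, -0.81 for Plin1, -0.88 for Fitm2 and 1.24 for Plin2. With lymphocyte and muscle levels as covariates Plin1 did not pass (-0.47, adjusted p = 0.0962).

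The wild-type animals of the lines differed from each other in these genes. In the WT of the ChREBPβ line against the WT of the total line, 6 members passed the test, 5 higher and 1 lower, against 45.6% of all genes, 26.4% higher and 19.2% lower. Plin4 was higher by 1.08 (SE 0.12, adjusted p = 7.82e-08), Plin1 by 0.72 (SE 0.10, adjusted p = 1.82e-06) and Cidec by 0.62 (SE 0.13, adjusted p = 0.000337). Bscl2 was higher by 0.36 and Fitm2 by 0.29 (adjusted p = 0.0144 and 0.0117), and Plin5 had a log2 difference of -0.86 (SE 0.20, adjusted p = 0.000852). Arrays did not overlap for 2 members, Plin1 and Plin4, against 17% of all genes. This comparison uses the same 7 WT arrays as the comparison of total ChREBP KO with its WT, so the values of both are not independent. In the same comparison 7 of 10 adipocyte and 5 of 8 macrophage markers were higher, 8 of 8 beige, 15 of 15 lymphocyte and 3 of 4 red blood cell markers were lower, and 0 of 12 muscle markers were called. The adipocyte level was 16.28 to 16.45 in the WT of the ChREBPβ line against 15.52 to 15.99. Line, breeding and these marker levels cannot be told apart here. With lymphocyte and muscle levels as covariates 1 member was called in place of 6, while the calls over all 38832 probes went from 17552 to 1267.

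The probes of Plin2 differed in their calls. At its first probe the WT of both lines differed by -0.32 (SE 0.14, adjusted p = 0.0694), and at its second probe by -0.73 (SE 0.16, adjusted p = 0.000508). The first probe passed the test in 4 of 17 alternatives, with -0.55 (adjusted p = 0.00664) after scaling to the 75th percentile, and with 3 of the 26 arrays left out singly (replicate 8 of the WT of the total line, replicate 7 of total ChREBP KO and replicate 2 of the WT of the ChREBPβ line). Over the 17 alternatives its difference ran from -1.17 to 0.35, with 1 change of sign. In the order of group means Plin2 went from total ChREBP KO (15.57 ± 0.35, SD, n = 7) over ChREBPβ-deficient mice (16.37 ± 0.19, n = 5) and their WT (16.59 ± 0.25, n = 7) to the WT of the total line (16.90 ± 0.26, n = 7), and all neighbours overlapped in at least 1 array. For Cidec the order was WT of the total line (17.21 ± 0.36), ChREBPβ-deficient (17.76 ± 0.28), their WT (17.83 ± 0.19) and total ChREBP KO (18.37 ± 0.11), where only the last step had no overlap. For Plin4 it was WT of the total line (15.91 ± 0.24), WT of the ChREBPβ line (16.99 ± 0.18), total ChREBP KO (17.14 ± 0.15) and ChREBPβ-deficient mice (17.28 ± 0.32), where only the first step had no overlap. Plin5 had the reverse order of Plin4 in its extremes, with the WT of the total line highest (13.79 ± 0.36) and the other 3 groups between 12.73 and 13.06.

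Wash batch, given in the labels, held several groups in each of its 4 levels, so the effect of total ChREBP KO could be read within each. The difference of means within batches 1 to 4 was 1.09, 0.77, 1.34 and 1.52 for Plin4, 0.58, 0.57, 1.12 and 1.18 for Plin1 and 0.58, 1.40, 0.93 and 1.45 for Cidec. It was -1.81, -1.59, -1.52 and -0.74 for Plin2 and -0.94, -0.82, -0.98 and -0.41 for Plin5. Each of these 5 genes kept its direction in all 4 batches, with 1 or 2 arrays per group and batch. Fitm2 was higher in all 4 batches, by 0.41 to 1.13, and Bscl2 by 0.01 to 0.74.

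The members were also compared with each other across the 26 arrays, each centred on its group mean, as a description. Plin1 went with Plin4 (r = 0.77) and with Fitm2 (r = 0.77), and Plin2 with Bscl2 (r = 0.63) and Plin5 (r = 0.58). With the adipocyte list r was 0.76 for Plin1, 0.69 for Fitm2, 0.65 for Plin4 and 0.59 for Cidec, and -0.07 to 0.47 for the others. With the macrophage list it was -0.61 for Plin1, -0.64 for Fitm2 and -0.62 for Bscl2, and -0.40 to 0.34 for the others. With the lymphocyte list it ran from -0.64 (Plin2) to -0.17 (Cideb). The named genes with the pattern most like each member were Gpt, Hebp1 and 2310067E19Rik for Plin1, with r between 0.87 and 0.88, Pim3 and Pck1 for Plin4 (0.86 to 0.87), Acad8, Zfp106 and Pla2g12a for Cidec (0.87 to 0.91), Gm6498, Mlph and Pkm for Plin2 (0.90 to 0.92) and Cpt1b, Rilp and Ubox5 for Plin5 (0.86 to 0.87). Cpt1b encodes the mitochondrial carnitine palmitoyltransferase of muscle and brown fat, and Pck1 the phosphoenolpyruvate carboxykinase that supplies glycerol for triglyceride in adipocytes. For Fitm2 they were Atpaf2, Mrpl11 and Trmu (0.85 to 0.88), for Bscl2 Slc25a10, Ptgr2 and Ndufa9 (0.90 to 0.94), and for Plin3 Gm12069, Thsd4 and Cyb5r3 (0.71 to 0.73).

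A list of 26 other lipid droplet genes was examined beside the members, covering lipases and their regulators, droplet enzymes, and proteins of droplet contact and shape. In total ChREBP KO 18 of 26 were called, 15 higher and 3 lower, against 45.9% of all genes, 26.2% higher and 19.7% lower. The median log2 fold change was 0.28 over the list and 0.05 over all genes. By the rule of the largest absolute change, the genes to name were Cidea, Cav1, Abhd5, Vps13c, Mgll and Tmem159. Cidea, the CIDE protein of multilocular brown and beige adipocytes and itself one of the beige markers, fell by 1.96 on the log2 scale (SE 0.31, adjusted p = 2.03e-05), from a WT range of 15.41 to 17.43 to a KO range of 14.22 to 15.17. Cidec and Cidea, which belong to the same family, thus had log2 fold changes of opposite sign in the same 14 mice.

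Among the rises, Cav1, the coat protein of caveolae, had a log2 difference of 1.30 (SE 0.13, adjusted p = 2.28e-08) and Abhd5, the coactivator of adipose triglyceride lipase that Plin1 binds, had 0.91 (SE 0.13, adjusted p = 5.2e-06). Vps13c, a lipid transfer protein at organelle contacts, had 0.81, Mgll, the monoglyceride lipase that completes lipolysis, had 0.77, and Tmem159, which acts with seipin in droplet assembly, had 0.72, with adjusted p-values of 0.000122, 3.96e-07 and 1.14e-08. Of the lipases, Pnpla2, the adipose triglyceride lipase, was higher by 0.56 (adjusted p = 0.00162), and Lipe, the hormone-sensitive lipase, had 0.28 (adjusted p = 0.14). The Pnpla2 inhibitors G0s2 and Hilpda were higher by 0.46 and 0.55 (adjusted p = 0.0371 and 0.00152). In ChREBPβ-deficient mice 0 of the 26 were called in limma, against 0.0472% of all genes. An unadjusted p under 0.05 was reached by 5 of them (7.75% of all genes did), with the lowest adjusted p, 0.277, for Cav1 (log2 fold change 0.52). The count of 18 in total ChREBP KO was 10 with slide as a fixed block, 6 with lymphocyte and muscle levels as covariates and 11 without the arrays of high muscle level, while the calls over all 38832 probes went from 17691 to 8386, 5588 and 10197.

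**Figure D4:**
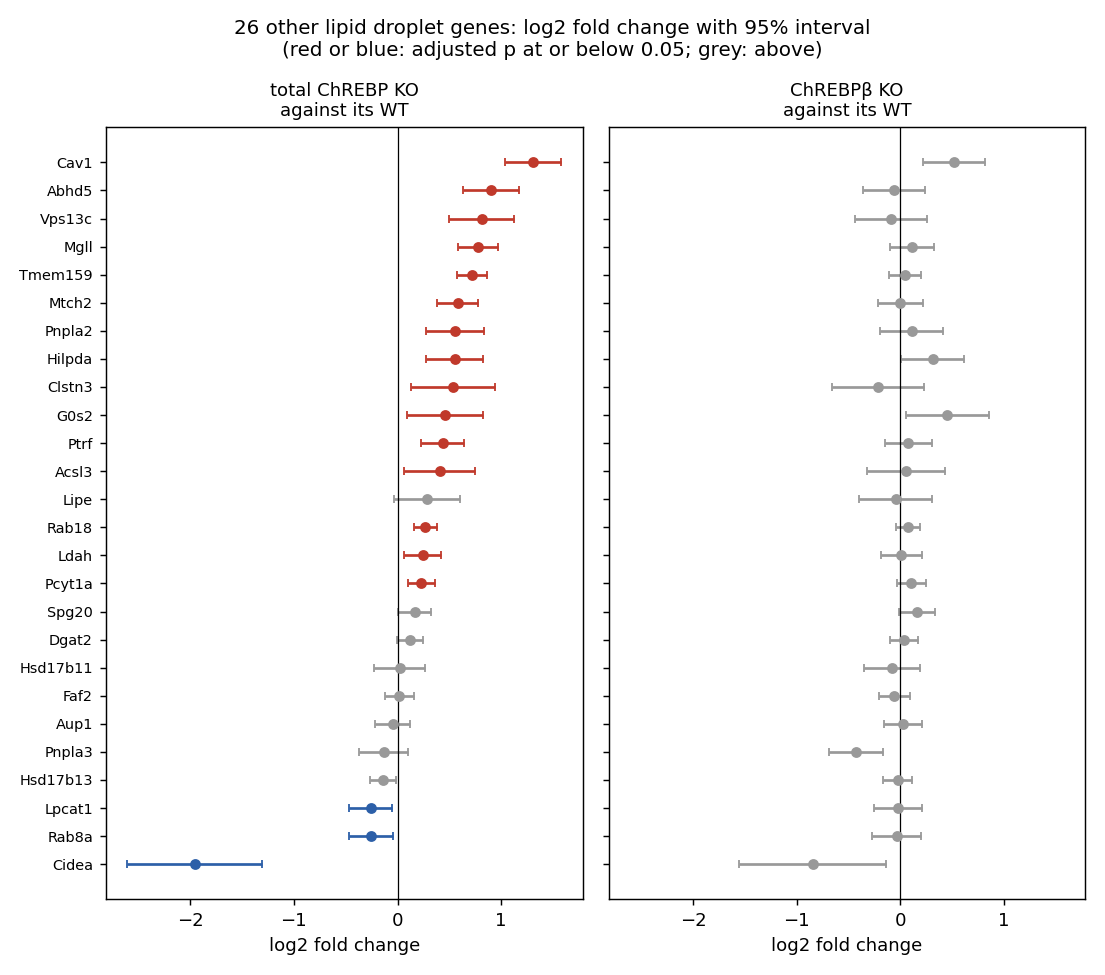
Log2 fold change with 95% interval of 26 other lipid droplet genes, 1 probe per gene, in total ChREBP KO against its WT (left) and ChREBPβ-deficient mice against their WT (right), ordered by the left panel; red or blue marks an adjusted p of 0.05 or below. Cav1 (1.30) is at the top and Cidea (-1.96) at the bottom on the left, and the right panel has 0 coloured points.

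The 5 genes whose arrays did not overlap kept both call and sign in total ChREBP KO at the probe of highest mean under all alternatives run on it, whereas 1 of the other probes of Plin1 was not called (0.13, adjusted p = 0.379). Over the alternatives other than leaving out an array, the log2 fold change ran from 0.70 to 1.09 for Plin1, from 1.06 to 1.42 for Plin4, from 1.03 to 1.70 for Cidec, from 0.58 to 0.99 for Fitm2 and from -1.79 to -0.82 for Plin2. With any single array left out, between 7 and 8 members were called.

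**Figure D5:**
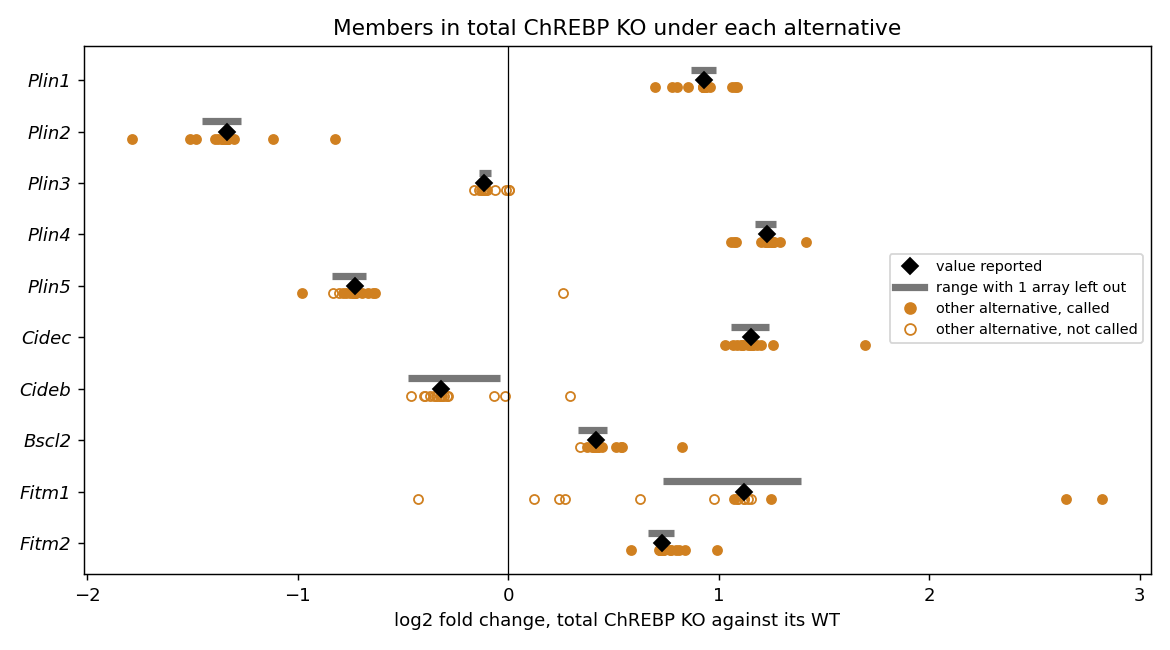
Log2 fold change of each member in total ChREBP KO against its WT as reported (black diamonds), its range with each of the 26 arrays left out in turn (grey bars) and under the other alternatives (circles, filled where the adjusted p was 0.05 or below). Plin1, Plin2, Plin4, Cidec and Fitm2 have filled circles on 1 side of 0, and Plin5 has an open circle at 0.26, from the fit with the beige level.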

How the data were processed

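Whole-genome mouse arrays of 1 colour were hybridised with labelled cRNA made from total RNA, 1 array for each of 26 mice. The authors analysed the scanned images with Agilent Feature Extraction 10.10.1.1, and the deposited scanner files hold spot intensity on a linear scale with quality calls. A second file deposited by the authors holds log2 values of 40168 probes, filtered, quantile normalized and taken as the median of replicate spots in R. The methods name limma for reading the scanner files and preprocessCore for the normalization. The second file was used here as an alternative, since the scanner files allow the same steps to be run with all quality calls at hand. Over 38499 shared probes its columns had a Pearson's r of at least 0.99996 with the values used here.

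The values used here were the log2 of the median pixel intensity without background subtraction. A non-control probe had to be found, positive and clear of background on 21 or more of the 26 arrays, or on 75% or more of the arrays in any single group, which scales the rule of the methods to these arrays. Outlier spots were set to missing (97 values, 0 of them in member probes), quantile normalization followed, and replicate spots were resolved by their median. This left 38832 probes with 25407 gene names. Quantile normalization forces 1 distribution on all arrays, so values are relative to the other probes of an array.

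A linear model with the 4 group means was run in limma 3.58.1 under R 4.3.3 (22 residual degrees of freedom). P-values were adjusted by Benjamini-Hochberg over all probes and called at 0.05. Compared were the KO and WT of each line, the 2 KO effects with each other (interaction term), and the WT of both lines. Calls on a background of genes count 1 probe per gene, that of highest mean. Labels name separate mice and do not say that their replicate numbers tie animals across groups, so no pairing was used in the fit reported. The number of arrays limits the precision.

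The members and all gene lists were chosen with earlier results of these data known. Named were all members, the 6 called genes of the other droplet list with the largest absolute change in each KO comparison (Pnpla2, Lipe, G0s2 and Hilpda were named for their role after their values were seen), the 3 genes most like each member by group-centred Pearson's r among 17304 genes (1 of them is not reported here), and Mlxipl. The other lists were markers of adipocytes, beige and brown adipocytes, skeletal muscle, lymphocytes, macrophages, epithelium and red blood cells. The level of a list on an array is the mean log2 intensity of its genes. Motifs were searched in RefSeq promoters of GRCm38.p6, and probe positions are those of the array annotation on mm9. Alternatives were the deposited table, scaling to the 75th percentile of the median or the processed signal, normexp background correction with an offset of 50, both filters, outlier spots kept, only the groups compared, wash batch, slide and replicate number as blocks, array weights, marker levels as covariates, every probe on its own, and each array left out.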

Additional observations from a re-analysis of the deposited data

Results flagged for a closer look

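Each member probe was checked in each group of 5 to 7 arrays, 64 checks in all. In 6 of them (9.38%) the highest or lowest array stood far from the nearest other array, by 0.58 to 0.81 of the range of the group. About 1 in 20 would be flagged by chance if the checks were independent. They share arrays and include several probes of the same gene, so the share of 9.38% cannot show an excess. Plin2 (A_55_P1999648) was at 16.28 on replicate 7 of total ChREBP KO, with the nearest array of the group at 15.71, and at 16.05 on replicate 6 of the ChREBPβ-deficient mice, with the nearest at 16.38. Plin1 (A_55_P2729049) was at 11.28 on replicate 4 of the ChREBPβ-deficient mice, below the next array at 11.98. Cideb (A_55_P2746861) was at 7.57 on replicate 7 of total ChREBP KO, above the next at 7.20. At its other probe (A_66_P108685) Cideb was at 9.48 on replicate 6 of the WT of the total line, above the next at 7.82, and at 9.09 on replicate 5 of the ChREBPβ-deficient mice, above the next at 7.29.

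For 5 members the effect of ChREBPβ deficiency differed from that of total ChREBP KO by the interaction term of limma. The ChREBPβ effect minus the total effect was -0.72 for Plin1, 1.12 for Plin2, -0.93 for Plin4, -1.23 for Cidec and -0.69 for Fitm2 on the log2 scale.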

How the results depend on the processing

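The count of 7 called members in total ChREBP KO was at least 5 in every alternative and between 7 and 8 with 1 array left out. The count of 0 in ChREBPβ-deficient mice stayed at 0 in every alternative run. Counting every probe on its own gave 12 of 16 probes in total ChREBP KO, the highest count of any alternative. It gave 9 of 16 probes for the difference between both KO effects. With slide as a fixed block the counts were 10 other droplet genes in total ChREBP KO, 0 members for the difference and 3 members between the WT of both lines, in a fit with fewer residual degrees of freedom. With lymphocyte and muscle levels as covariates they were 6 other droplet genes and 1 member between the WT of both lines, and without the 14 arrays of high muscle level (chosen with the data seen) 11, 1 for the difference and 3 between the WT of both lines; the cause was not tested. With lymphocyte and muscle levels as covariates Fitm2 was at -0.054 between the WT of both lines. With the beige level as a covariate (chosen with the data seen) Plin5 was at 0.26 in total ChREBP KO and at 0.43 between the WT of both lines. Scaling to the 75th percentile of the median intensity gave log2 fold changes of 1.09 for Cidec and -1.51 for Plin2 in total ChREBP KO, and in the WT comparison moved the share of higher calls from 57.0% to 43.4% of all called probes. Cidec lost its call between the WT of both lines under that scaling (0.30, adjusted p = 0.125), and Plin2 gained one (-0.55, adjusted p = 0.00664). Among 429 values of members in total ChREBP KO, 415 kept direction and side of the threshold, 5 lost the call, 8 gained it and 1 changed sign. Of the values not called in the fit reported, 4 changed sign in total ChREBP KO and 18 in ChREBPβ-deficient mice. Fitm1 was called without replicate 1 of the WT of the total line, replicate 4 or 5 of total ChREBP KO, or replicate 4 of the ChREBPβ-deficient mice. With the replicate number of the labels as a block, the counts were 7 members and 14 other genes in total ChREBP KO, 0 in ChREBPβ-deficient mice, 5 for the difference and 6 between the WT of both lines. The correlation of same-numbered arrays was between -0.36 and 0.51 in the total line (6 pairs) and between -0.33 and 0.14 in the ChREBPβ line (4 pairs). Arrays of different number were not compared, so these values cannot show whether the numbers pair the mice. Signal over background limits Fitm1, well above background on 15 arrays.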
